A study of Mus musculus with 2 samples.

Results

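The cholesterol genes described here are 34 genes of the synthesis, uptake, storage and efflux of cholesterol, chosen by symbol from the 32285 genes of a mouse liver single-cell RNA-Seq matrix. All 34 were found. The series holds 2 liver samples, 1 labelled Cebp KO and 1 labelled Cebp WT, both from mice fed 40% HFCFD, a diet high in fat, cholesterol and fructose, for 2 weeks. Per the series' design text and the study's methods, the knockout was specific to hepatocytes, made by crossing Cebpa fl/fl mice with mice that carry Cre under the albumin promoter on a C57BL/6N background, and only male mice were used. The sources used here do not give the ages of these mice or the number of livers behind each sample. Liver cells were freed by perfusion and digestion, purified on a Percoll gradient and captured on 1 lane per sample with 10x Genomics 3' chemistry, in which a unique molecular identifier (UMI) marks each captured RNA molecule. The matrix joins both libraries, and a barcode ends in suffix 1 or suffix 2. No label ties a suffix to a genotype, so the libraries are called by their suffix, no difference between them is given as a genotype effect, and with 1 library each there was no test.

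Cholesterol is built from acetyl-CoA by a long chain of enzymes. The early steps run through mevalonate to squalene, and the late steps close squalene into lanosterol and trim it to cholesterol. The transcription factor SREBP-2, encoded by Srebf2, switches the chain on when sterols are low. SCAP carries it from the endoplasmic reticulum to the Golgi, and the INSIG proteins hold both back when sterols are plentiful. The nuclear receptor LXR alpha, encoded by Nr1h3, senses oxidized sterols and is known to drive efflux genes. The liver makes cholesterol, takes it up from blood and passes it into bile through the transporter pair ABCG5 and ABCG8.

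Promoter windows from 250 bases before to 50 bases after a transcription start were taken from RefSeq on GRCm38.p6, in which 27 of the 34 genes matched. Fdps, Fdft1, Sqle, Stard4, Npc1, Soat2 and Scarb1 had no entry. The sterol regulatory element was searched as TCACNCCAC and the CCAAT box, bound by NF-Y, a known partner of SREBP-2, as CCAAT, both on either strand. TCACNCCAC was present in 408 of 32851 windows (1.24%) and in 1 of the 35 windows of the cholesterol genes, that of Hmgcs1. CCAAT was present in 37.4% of all windows and in 14 of 18 windows of the synthesis enzymes. Counted by gene, 14 of 15 synthesis enzymes with a window held CCAAT, Acat2 being the exception, against 41.1% of all genes with a window. A match to these letters is a description and not a bound site.

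The window of Hmgcs1 is shown as the only one that held both motifs, and that of Msmo1 as an enzyme with several CCAAT boxes and a gap between the libraries. Insig2 and Abcg5 are shown because their levels differed by more than 2-fold between the libraries. Msmo1, Insig2 and Abcg5 were picked after their values were seen. Insig2 has 3 windows, of which the most upstream and the middle are printed. Capitals mark TCACNCCAC or CCAAT or their reverse complements.
Hmgcs1, chr13:119690101-119690400, plus strand: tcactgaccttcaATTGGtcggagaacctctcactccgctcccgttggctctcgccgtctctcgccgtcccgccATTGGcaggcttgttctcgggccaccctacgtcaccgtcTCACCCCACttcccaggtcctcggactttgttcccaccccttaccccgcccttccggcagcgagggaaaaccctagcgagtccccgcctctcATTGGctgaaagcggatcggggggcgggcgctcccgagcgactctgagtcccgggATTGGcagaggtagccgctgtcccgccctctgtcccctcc
Msmo1, chr8:64733529-64733828, minus strand: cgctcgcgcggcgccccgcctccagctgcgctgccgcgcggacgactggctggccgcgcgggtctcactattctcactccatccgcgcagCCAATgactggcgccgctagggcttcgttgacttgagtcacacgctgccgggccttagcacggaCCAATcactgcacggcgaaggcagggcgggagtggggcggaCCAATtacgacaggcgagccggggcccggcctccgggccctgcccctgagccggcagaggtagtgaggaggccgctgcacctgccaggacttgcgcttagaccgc
Insig2 upstream start, chr1:121332540-121332839, minus strand: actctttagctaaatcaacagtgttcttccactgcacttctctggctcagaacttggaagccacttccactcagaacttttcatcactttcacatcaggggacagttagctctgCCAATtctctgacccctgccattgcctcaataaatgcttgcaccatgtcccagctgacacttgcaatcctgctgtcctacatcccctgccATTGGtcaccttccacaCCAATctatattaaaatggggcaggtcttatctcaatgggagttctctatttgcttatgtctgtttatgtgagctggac
Insig2 middle start, chr1:121327975-121328274, minus strand: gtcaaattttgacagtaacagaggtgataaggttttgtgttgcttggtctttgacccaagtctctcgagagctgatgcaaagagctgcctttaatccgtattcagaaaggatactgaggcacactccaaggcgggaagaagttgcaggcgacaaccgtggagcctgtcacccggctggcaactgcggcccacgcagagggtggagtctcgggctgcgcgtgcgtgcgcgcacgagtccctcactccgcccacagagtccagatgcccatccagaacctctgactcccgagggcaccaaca
Abcg5, chr17:84682962-84683261, minus strand: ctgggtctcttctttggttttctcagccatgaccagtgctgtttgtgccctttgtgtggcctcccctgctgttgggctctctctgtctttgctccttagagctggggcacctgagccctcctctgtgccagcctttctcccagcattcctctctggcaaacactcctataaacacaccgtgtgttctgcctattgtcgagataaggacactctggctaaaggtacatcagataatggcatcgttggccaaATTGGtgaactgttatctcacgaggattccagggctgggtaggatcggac
In Hmgcs1 the sterol element began 137 bases before the start. Of the 3 Insig2 windows, only the upstream one held CCAAT. The Abcg5 window shared 209 of its bases with 1 of the 2 windows of Abcg8 (chr17:84682871-84683170), which is read in the opposite direction, and none with the other. In the gene annotation the starts of the pair lie 6709 bases apart. Reads of 3' chemistry do not show from which start a transcript came.

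The library with suffix 1 held 17313 barcodes and 60048646 UMIs, and that with suffix 2 held 15003 barcodes and 52355243 UMIs. A total of 81 barcode sequences occurred in both. Droplets with at least 500 UMIs, at least 200 genes and at most 25% mitochondrial UMIs were kept, which left 11617 and 6088. The median mitochondrial share before this filter was 4.07% and 41.3%. Hepatocytes were the kept droplets of at least 5000 UMIs in which 12 hepatocyte markers such as Alb and Apoa1 made up at least 6% of UMIs and at most 2 markers of any other cell type were seen. They numbered 448 with suffix 1 (median 25737 UMIs) and 427 with suffix 2 (median 12517 UMIs). All 12 hepatocyte markers were present in both, at a summed 111063 and 119014 counts per 1000000 UMIs (CPM), against 48.7 and 59.4 CPM for the 9 Kupffer cell markers. The erythroid markers, which the gate did not use and of which 5 of 7 had a UMI, were unequal at 1167 and 174 CPM, and their part in the differences between the libraries was not tested. Cebpa itself, the targeted gene, stood at 1.26 CPM (95% interval 0.688 to 2.11) in hepatocytes with suffix 1 and at 107 CPM (99.2 to 116) in those with suffix 2. In Kupffer-like cells, gated as described further on, it stood at 137 CPM (124 to 151) and 168 CPM (155 to 182). Which part of the gene was deleted is not given, so a 3' count need not show the deletion, and no genotype was read from it. The 3' chemistry gives 1 tag per captured molecule, so levels are not scaled by gene length. Here and below a level is CPM of UMIs summed over cells, its interval is an exact Poisson 95% interval, and intervals cover counting error only, not the spread between animals.

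The 18 synthesis enzymes differed little in their summed level between the hepatocytes of the libraries, though by more than counting error. Their sum was 925 CPM (907 to 943) in suffix 1 and 853 CPM (830 to 876) in suffix 2. Ebp and Sc5d, 2 late enzymes, gave more than all the others together, 511 and 502 CPM. The remaining 16 enzymes summed to 413 CPM (402 to 426) and 351 CPM (336 to 366).

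Of the 8 early enzymes, Fdps, which makes farnesyl diphosphate, and Hmgcs1, which makes HMG-CoA, had the most UMIs. Fdps stood at 69.2 CPM (64.4 to 74.2) in suffix 1 and 72.6 CPM (66.0 to 79.7) in suffix 2. Hmgcs1 stood at 50.7 CPM (46.6 to 55.0) and 46.7 CPM (41.5 to 52.5). For both genes the intervals of the libraries overlapped. The isomerase gene Idi1 stood at 35.0 and 28.7 CPM, and the kinase gene Pmvk at 38.6 and 37.2 CPM. Acat2, whose thiolase condenses acetyl-CoA, gave 21.7 and 21.8 CPM, and Fdft1, the squalene synthase, 20.9 and 15.6 CPM. Mvk, the mevalonate kinase, and Mvd, the decarboxylase, were the scarcest early enzymes, with 7.91 and 5.58 CPM and with 5.39 and 5.58 CPM. With the limits used here no early enzyme was 1.5-fold apart between the libraries. At a mitochondrial limit of 10%, on fewer cells, the log2 ratio of suffix 1 over suffix 2 was 1.15 for Mvk and 1.08 for Fdft1. The median over all genes was 0.36 there. Ggps1, which turns farnesyl diphosphate toward protein prenylation and away from sterols, stood at 8.71 and 8.20 CPM.

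The late enzymes had a broader range. The level was higher with suffix 1 for 9 of the 10, as it was for 4219 of the 8219 genes tested across the matrix, and for Nsdhl and Lss among the 9 the interval of the ratio spanned 1. Sc5d, a sterol desaturase, stood at 312 CPM (302 to 323) in suffix 1 and 255 CPM (242 to 268) in suffix 2. Ebp, a sterol isomerase, ran the other way, at 199 CPM (191 to 208) and 247 CPM (235 to 260). The intervals did not overlap for either gene. Sqle, which oxidizes squalene in a rate-limiting step, stood at 11.1 CPM (9.27 to 13.3) and 4.92 CPM (3.32 to 7.02), a ratio of 2.26 (exact conditional 95% interval 1.51 to 3.50). These levels rested on 124 and 30 UMIs. Msmo1, the sterol methyl oxidase, stood at 26.9 CPM (24.0 to 30.2) and 13.9 CPM (11.1 to 17.2), a ratio of 1.93 (1.51 to 2.49). Dhcr7, which takes the last step of the pathway by way of 7-dehydrocholesterol, stood at 28.7 CPM (25.7 to 32.1) and 18.7 CPM (15.4 to 22.5), a ratio of 1.54 (1.24 to 1.92). Sqle, Msmo1 and Dhcr7 were the most unequal of the synthesis enzymes, all with the higher level in the library with suffix 1. At a mitochondrial limit of 10%, on fewer cells, the log2 ratio of Dhcr7 was 1.60, beside a median of 0.36 over all genes. The other late enzymes were Cyp51 (27.2 and 22.1 CPM), Tm7sf2 (25.7 and 20.01 CPM), Hsd17b7 (23.8 and 18.2 CPM), Nsdhl (13.7 and 13.1 CPM) and Lss (6.83 and 5.90 CPM), the lanosterol demethylase, a sterol reductase, a ketosteroid reductase, a sterol dehydrogenase and the lanosterol synthase. Tm7sf2 lies on the same strand as part of Vps51, so reads in the shared stretch can be counted for either gene.

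**Figure D1:**
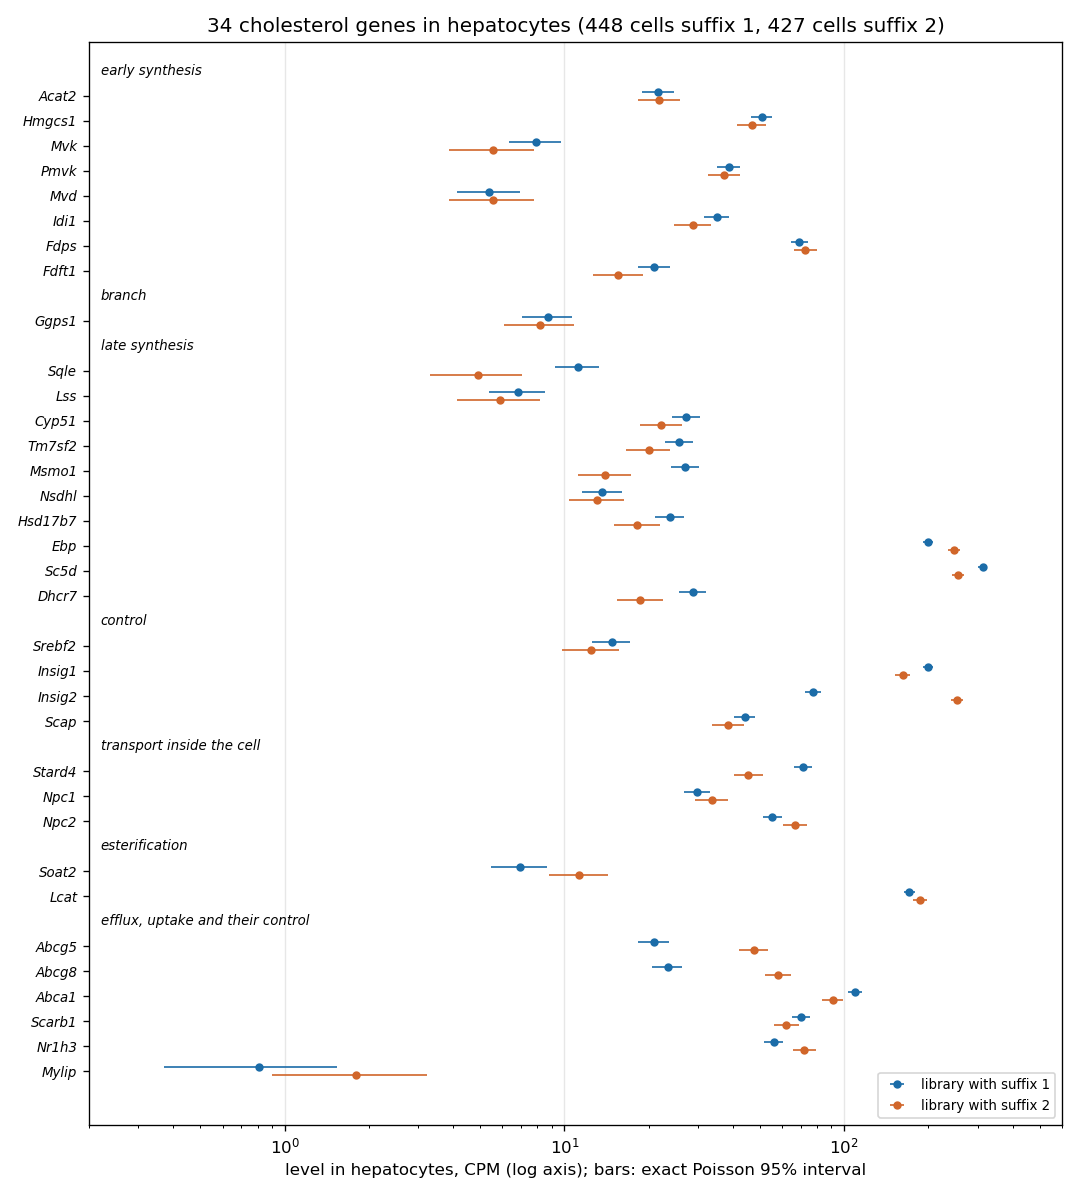
Level of each of the 34 cholesterol genes in hepatocytes (CPM, log axis), 1 point per library with its exact Poisson 95% interval, grouped by role. Insig2, Abcg5 and Abcg8 lie further right with suffix 2, Sqle and Msmo1 further right with suffix 1, and most others have nearly the same level in both.

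Of the 4 genes that control the pathway, Insig2 alone was over 2-fold apart between the libraries. Insig2, which retains SCAP in the endoplasmic reticulum, stood at 77.3 CPM (72.3 to 82.7; 861 UMIs) in hepatocytes with suffix 1 and 253 CPM (240 to 266; 1541 UMIs) with suffix 2. The level with suffix 2 was 3.27 times that with suffix 1 (3.004 to 3.56). Its paralog Insig1 had the opposite order and a smaller gap, with 199 CPM (191 to 207) and 162 CPM (152 to 172), a ratio of 1.23 (1.14 to 1.32). The order of the pair was thus reversed between the libraries. Srebf2 stood at 14.7 CPM (12.6 to 17.2) and 12.5 CPM (9.82 to 15.6), and Scap at 44.0 CPM (40.2 to 48.1) and 38.5 CPM (33.8 to 43.8). For neither of these did the libraries stand apart beyond counting error.

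The biliary efflux transporters were both higher with suffix 2. Abcg5 stood at 20.8 CPM (18.2 to 23.7) in suffix 1 and 47.4 CPM (42.1 to 53.2) in suffix 2, 2.27 times as much (1.91 to 2.71). Abcg8 stood at 23.4 CPM (20.6 to 26.4) and 58.1 CPM (52.2 to 64.4), 2.49 times as much (2.11 to 2.93). The genes overlap on opposite strands in the annotation. Abca1, which loads cholesterol onto apolipoprotein A-I at the cell surface, was slightly higher with suffix 1, at 109 CPM (103 to 116) against 90.9 CPM (83.4 to 98.7). Scarb1, the receptor for high-density lipoprotein, stood at 70.1 and 62.2 CPM with overlapping intervals. Nr1h3 stood at 55.9 CPM (51.6 to 60.4) and 72.0 CPM (65.4 to 79.1), 1.29 times as much with suffix 2 (1.14 to 1.46). Its order turned at a mitochondrial limit of 10% (log2 ratio of suffix 1 over suffix 2 0.052) and with no limit (0.20), where the medians of all genes were 0.36 and 0.49. The limit of 10% left few hepatocytes. Mylip, an LXR target that encodes a ubiquitin ligase, was nearly absent from hepatocytes, with 9 and 11 UMIs (0.809 and 1.80 CPM).

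Transport inside the cell and esterification differed less. Stard4, a soluble sterol carrier, stood at 71.2 CPM (66.4 to 76.4) in suffix 1 and 45.4 CPM (40.2 to 51.1) in suffix 2, a ratio of 1.57 (1.37 to 1.80). Npc1 and Npc2, which pass cholesterol out of lysosomes, stood at 29.8 and 33.6 CPM and at 55.3 and 66.6 CPM. At a mitochondrial limit of 10% Npc1 was over 2-fold higher with suffix 1 (log2 ratio 1.28, beside a median of 0.36 over all genes). That limit left few hepatocytes, and no interval was computed there. Of the esterifying enzymes, Soat2 stood at 6.92 CPM (5.46 to 8.65) and 11.3 CPM (8.80 to 14.3), 1.64 times as much with suffix 2 (1.16 to 2.29). At a mitochondrial limit of 10% its log2 ratio of suffix 1 over suffix 2 was 0.77, as it was for Ggps1 and Srebf2. On so few cells no turn of order is read from it. Lcat, secreted to act on lipoproteins in plasma, stood at 171 CPM (163 to 179) and 186 CPM (175 to 197).

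The cholesterol genes were then set beside all genes. A gene was tested when its mean level over both libraries reached 5 CPM, and was called when its CPM ratio, with 3 UMIs added to both sums, was at least 2-fold. Of 8219 genes tested, 4.37% were called in either direction, 2.3% with the higher level in suffix 1 and 2.07% with the higher level in suffix 2. Of the 34 cholesterol genes 33 were tested, Mylip falling below the filter, and 4 were called. Sqle was higher with suffix 1, and Insig2, Abcg5 and Abcg8 were higher with suffix 2. Sqle lay under 5 CPM with suffix 2 and passed the filter through the library in which it was high. The log2 ratio of suffix 1 over suffix 2 was -1.71 for Insig2, a value below which only 0.584% of the genes tested lay. Among the synthesis enzymes, 14 of 18 had a log2 ratio above 0, with a median of 0.28, beside a median of 0.01 over all genes tested. The median was 0.08 for the early enzymes and 0.32 for the late enzymes. Sqle was no longer called among hepatocytes of at least 10000 UMIs (log2 ratio 0.85), of at least 20000 UMIs (0.41) or under a stricter marker gate (0.81).

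**Figure D2:**
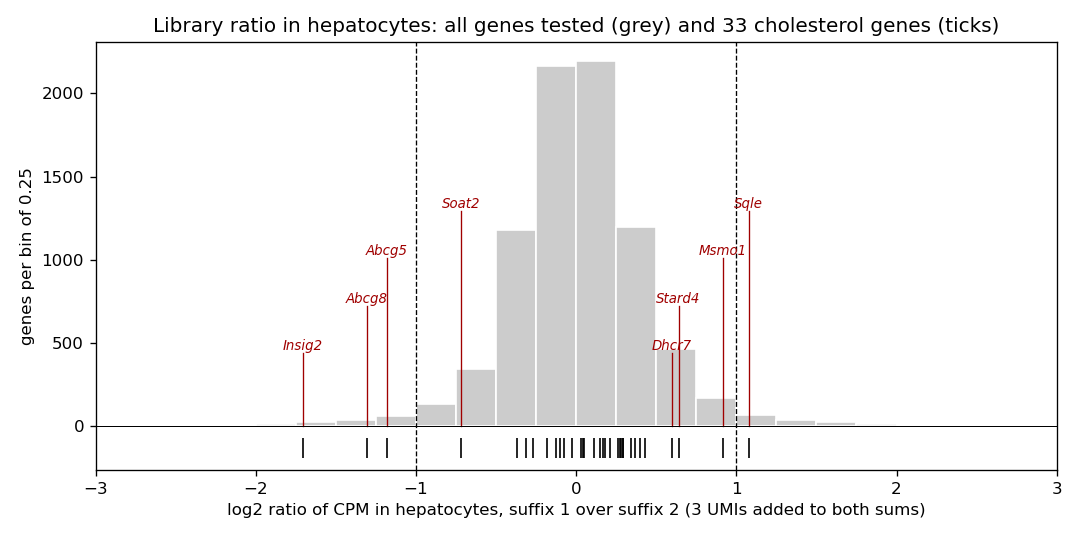
Log2 ratio of CPM in hepatocytes, suffix 1 over suffix 2, for the 8219 genes tested (grey, genes per bin of 0.25, bins beyond 3 either way not drawn) and the 33 cholesterol genes tested (black ticks), with the 8 largest ratios named and dashed lines at 2-fold. Insig2, Abcg5 and Abcg8 lie left of -1, Sqle lies right of 1, and the others lie between the lines.

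Of 34 other genes of the pathway, 27 were tested and 1 was called, a share near the 4.37% of all genes. It was Gramd1c, whose protein moves sterol from the plasma membrane, at 2.695 CPM with suffix 1 and 11.5 CPM with suffix 2. The level was 4.26 times as much (2.74 to 6.77) on 30 and 70 UMIs, and the gene passed the filter only through the library in which it was high. None of the 9 tested partners of SREBP processing and INSIG was called, nor any of 4 genes of the prenyl branch. Among the 27 tested, the largest ratios toward suffix 1 were those of Tmem97, Rnf139 and Nceh1. Tmem97, a regulator of NPC1, stood at 40.6 and 23.1 CPM, a ratio of 1.76 with an interval of 1.45 to 2.14. Rnf139, a ligase of the endoplasmic reticulum, stood at 26.5 and 16.7 CPM, and Nceh1, a cholesteryl ester hydrolase, at 10.5 and 6.72 CPM. Toward suffix 2 the next were the LXR target Pltp (3.95 and 6.40 CPM), a phospholipid transfer protein of plasma, 1.62 times as high (1.02 to 2.55), and Nr1h2 (12.1 and 18.2 CPM), which encodes LXR beta, 1.501 times as high (1.16 to 1.94). Of the LXR targets, Srebf1 (116 and 119.6 CPM) and Lpcat3 (79.1 and 82.3 CPM) had overlapping intervals between the libraries. None of the 4 tested genes of this list was called, and Pltp, under 5 CPM with suffix 1, passed the filter only through the library in which it was high. Among those over 50 CPM in at least 1 library were also Scp2 (3509 and 4237 CPM), Pgrmc1 (703 and 709 CPM), Lipa (153 and 150.2 CPM), Aup1 (84.6 and 78.4 CPM), Scarb2 (78.4 and 75.9 CPM) and Stard5 (53.5 and 48.1 CPM).

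Because the hepatocytes differed in depth between the libraries, each cell was also thinned at random to 5000 UMIs. The share of hepatocytes with an Insig2 UMI was then 30.6% (exact Clopper-Pearson 95% interval 26.3 to 35.1) with suffix 1 and 69.1% (64.5 to 73.4) with suffix 2, and 74.6% and 90.6% before thinning. In T-like cells, thinned likewise, it was 16.2% and 26.8%, at median depths of 6780 and 7175.5 UMIs. The Abcg8 share was 10.5% (7.81 to 13.7) and 24.6% (20.6 to 29.0) in hepatocytes, and 3.40% and 5.80% in T-like cells. The Abcg5 share was 8.71% (6.26 to 11.7) and 22.0% (18.2 to 26.2), and 0.851% and 2.90% in T-like cells. Before thinning, 37.1% and 42.9% of hepatocytes had an Abcg5 UMI and 40.6% and 46.6% an Abcg8 UMI. All of these genes were thus seen in more cells of the library with suffix 2 at equal depth. For Sqle the thinned share was 4.69% (2.92 to 7.08) and 1.17% (0.381 to 2.71), beside 0.851% and 3.62% in T-like cells, so that with suffix 2 it lay no higher than in T-like cells. Sqle was seen in 17.0% and 5.62% of hepatocytes before thinning. T-like cells of under 5000 UMIs, 304 and 326 cells, were left out of these shares.

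The gap in Insig2 and in the transporters was present at every depth. Droplets past the marker share for hepatocytes were parted by their UMIs, also below 5000, where 8335 and 3400 droplets lay. Whether droplets below 5000 UMIs are cells or hold free hepatocyte RNA was not tested. Insig2 stood at 76.8 CPM with suffix 1 and 332 CPM with suffix 2 in the shallowest droplets, of under 1000 UMIs, and at 77.6 and 249 CPM at 20000 UMIs and over. Abcg8 stood at 21.3 and 61.7 CPM in the shallowest and at 23.1 and 57.7 CPM in the deepest. Abcg5 stood at 19.5 and 78.3 CPM and at 20.1 and 48.9 CPM. The library with suffix 2 was higher for each of the 3 genes in all 6 depth classes. Other members changed with depth in both libraries. Fdps stood at 176 and 147 CPM in the shallowest droplets and 72.2 and 63.1 CPM in the deepest, and Ebp at 353 and 404 CPM and at 204 and 234 CPM. Insig1 had the opposite course, from 113 and 85.2 CPM to 191 and 166 CPM. The mitochondrial share of UMIs also differed with depth, from 3.28% and 4.92% to 16.9% and 16.8%, and its part in these levels was not tested.

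**Figure D3:**
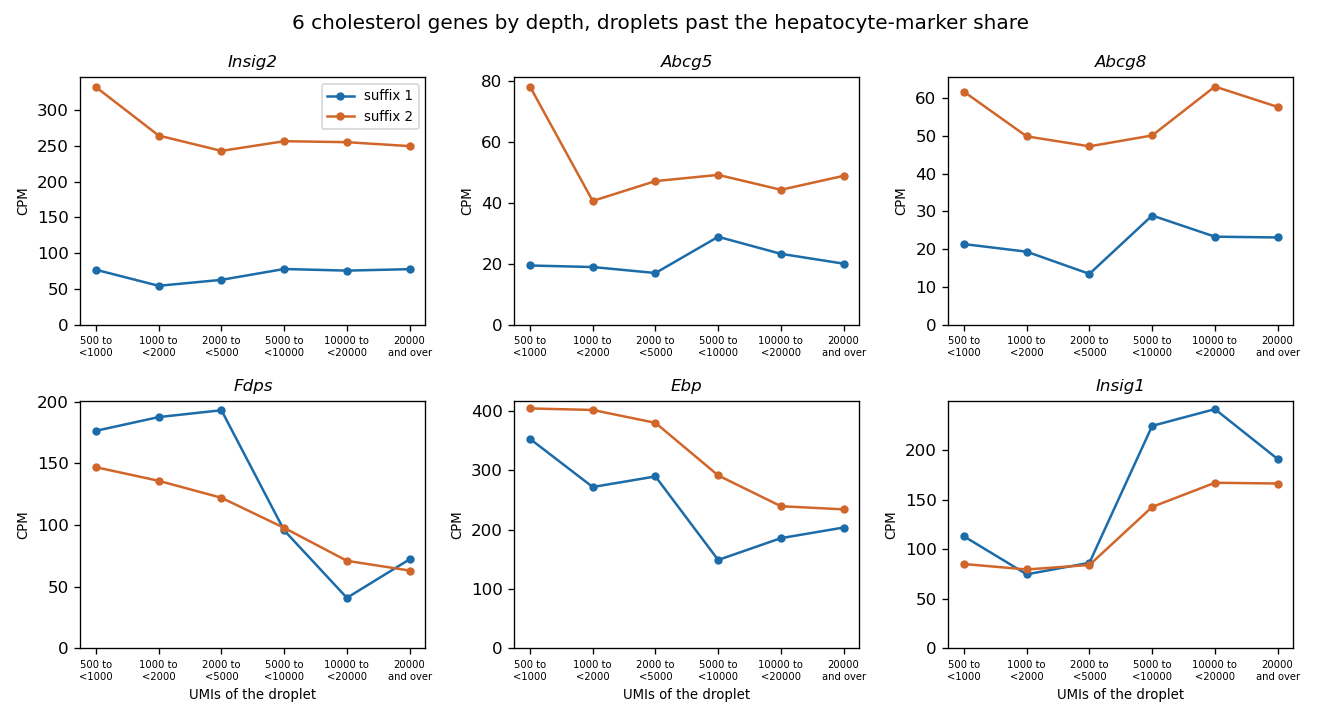
Level (CPM) of 6 cholesterol genes in droplets past the hepatocyte-marker share, by the number of UMIs of the droplet, 1 line per library. The lines of Insig2, Abcg5 and Abcg8 stay apart at every depth with suffix 2 on top, Fdps and Ebp are lower in deep droplets, and Insig1 is higher there.

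The other liver cell types were gated as kept droplets with at least 3 markers of a type, more than of any other type, and hepatocyte markers below 6% of UMIs. Those with at least 50 cells in both libraries were Kupffer-like (298 and 460 cells), dendritic-like (120 and 108), T-like (539 and 464), NK-like (89 and 70), B-like (179 and 143) and endothelial-like (114 and 115). Hepatocyte RNA was present in all of them, and free RNA and doublets cannot be told apart as its source. The summed level of the 12 hepatocyte markers was between 0.174 and 0.309 of that in hepatocytes, and a cholesterol gene near or under that share of its hepatocyte level is read as background.

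Hepatocytes had the highest sum of the 18 synthesis enzymes in both libraries, and dendritic-like cells came next with 698 CPM (650 to 749) and 666 CPM (616 to 718). Kupffer-like cells had the lowest, 281 CPM (262 to 300) and 269 CPM (252 to 286), which overlapped that of endothelial-like cells, 291 CPM (253 to 332) and 280 CPM (241 to 323). B-like, T-like and NK-like cells lay between, from 408 to 495 CPM, with overlapping intervals in the library with suffix 1. Without Ebp and Sc5d the order changed at the top. Dendritic-like cells then stood at 529 CPM (486 to 573) and 511 CPM (468 to 557), above the hepatocytes' 413 and 351 CPM. The early enzymes alone summed to 344 CPM (311 to 381) and 337 CPM (303 to 375) in dendritic-like cells and to 249 CPM (240 to 259) and 234 CPM (222 to 246) in hepatocytes.

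**Figure D4:**
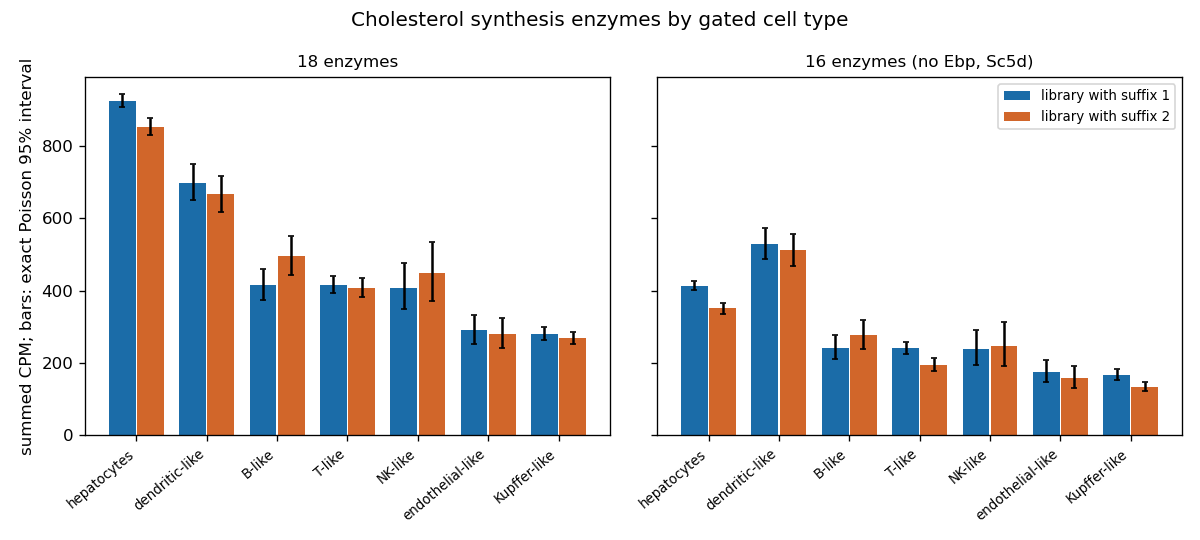
Summed CPM of the synthesis enzymes per gated cell type and library, with exact Poisson 95% intervals, for all 18 enzymes (left) and for the 16 without Ebp and Sc5d (right). Hepatocytes are highest on the left (925 and 853 CPM), and dendritic-like cells are highest on the right (529 and 511 CPM).

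The dendritic-like signal came mostly from cells with a UMI of Siglech, a marker of plasmacytoid dendritic cells. This split was made after the values were seen. In the 95 and 78 dendritic-like cells with a Siglech UMI the 18 enzymes summed to 824 CPM (759 to 894) and 850.4 CPM (777 to 929). In the 25 and 30 without, they summed to 456 CPM (391 to 530.0) and 424 CPM (365 to 489). The cells without were deeper, with medians of 14524 and 14055.5 UMIs against 7229 and 6652.5, and the part of depth was not tested. Npc1 parted the same cells further, with 140.2 CPM (114 to 170) and 176 CPM (143 to 213) against 10.6 CPM (2.89 to 27.2) and 31.9 CPM (17.4 to 53.5). Fdps stood at 149 and 169 CPM against 95.5 and 79.7 CPM. Npc2 (605 and 598 against 467 and 499 CPM) and Srebf2 (136 and 85.2 against 114 and 114 CPM) were closer.

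Gene by gene, the type with the highest level was the same in both libraries for 32 of the 34 genes, all but Mvk and Lss. It was the hepatocyte for 11, the dendritic-like cell for 13, the Kupffer-like cell for 4, the endothelial-like cell for 2, and the NK-like and the B-like cell for 1 each. Of the 16 such synthesis enzymes 10 were highest in dendritic-like cells and 6 in hepatocytes. Many of these maxima were not above the next type beyond counting error. Insig1 stood at 199 and 162 CPM in hepatocytes and between 15.3 and 43.4 CPM elsewhere, and Lcat at 171 and 186 CPM against 29.6 to 80.1 CPM.

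Npc1, Npc2, Abca1 and Nr1h3 had their highest levels outside the hepatocytes. Npc2 stood at 677 CPM and 774 CPM in Kupffer-like cells and at 558 and 555 CPM in dendritic-like cells, beside 55.3 and 66.6 CPM in hepatocytes. Abca1 stood at 407 and 715 CPM and Nr1h3 at 479 and 395 CPM in Kupffer-like cells, the liver's resident macrophages, beside 55.9 and 72.0 CPM of Nr1h3 in hepatocytes. Nr1h3 overlaps Gm13783 on the same strand, so reads in the shared stretch can be counted for either gene. Scarb1 was also highest there, with 139.6 and 130.03 CPM. Npc1 was highest in dendritic-like cells, at 95.7 and 113 CPM, where Nr1h3 (9.11 and 3.95 CPM) and Abca1 (13.7 and 10.9 CPM) were low. Mylip was highest in endothelial-like cells, at 557 and 479 CPM, beside 0.809 and 1.80 CPM in hepatocytes. Stard4 also had its highest level in endothelial-like cells, at 87.9 and 59.8 CPM. Hepatocytes stood close, at 71.2 and 45.4 CPM, with overlapping intervals in both libraries. Srebf2 stood at 128 and 97.6 CPM in dendritic-like cells and 64.6 and 90.1 CPM in B-like cells, beside 14.7 and 12.5 CPM in hepatocytes. Ggps1 stood between 30.5 and 85.0 CPM in every other type and below 9 CPM in hepatocytes.

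Calls of at least 2-fold in both libraries were set beside the same calls over all genes of that level. Of 32 cholesterol genes tested against Kupffer-like cells, 15 were higher in hepatocytes, where 14.2% of all genes were, and 6 were higher in Kupffer-like cells, where 45.7% of all genes were. The 6 were Ggps1, Npc1, Npc2, Abca1, Nr1h3 and Mylip, with no synthesis enzyme among them. Mylip, under 2 CPM in hepatocytes, passed the filter in this comparison and the next ones only through the type in which it was high. Against dendritic-like cells, 10 of 34 were higher in hepatocytes (13.7% of all genes) and 8 were lower (45.2% of all genes). The 8 held the synthesis enzymes Mvd, Sqle and Msmo1, together with Ggps1, Srebf2, Npc1, Npc2 and Mylip. With suffix 1, Sqle (21.87 against 11.14 CPM) and Msmo1 (51.95 against 26.95 CPM) reached 2-fold only with the 3 UMIs added to both sums. Against endothelial-like cells, 10 of 31 were higher in hepatocytes (9.16% of all genes) and 4 were lower (52.7% of all genes), namely Ggps1, Srebf2, Npc2 and Mylip. The genes higher in hepatocytes than in all of these types were Ebp, Sc5d, Insig1, Lcat, Abcg5 and Abcg8. Several genes called higher in hepatocytes lay under 5 CPM in the other type in at least 1 library, so the filter leaned on the hepatocytes there. Examples were Abcg5 (2.67 CPM, endothelial-like, suffix 1) and Abcg8 (4.93 CPM, dendritic-like, suffix 2). Acat2 (1.96 CPM) and Fdft1 (3.36 CPM) were so in Kupffer-like cells with suffix 2.

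**Figure D5:**
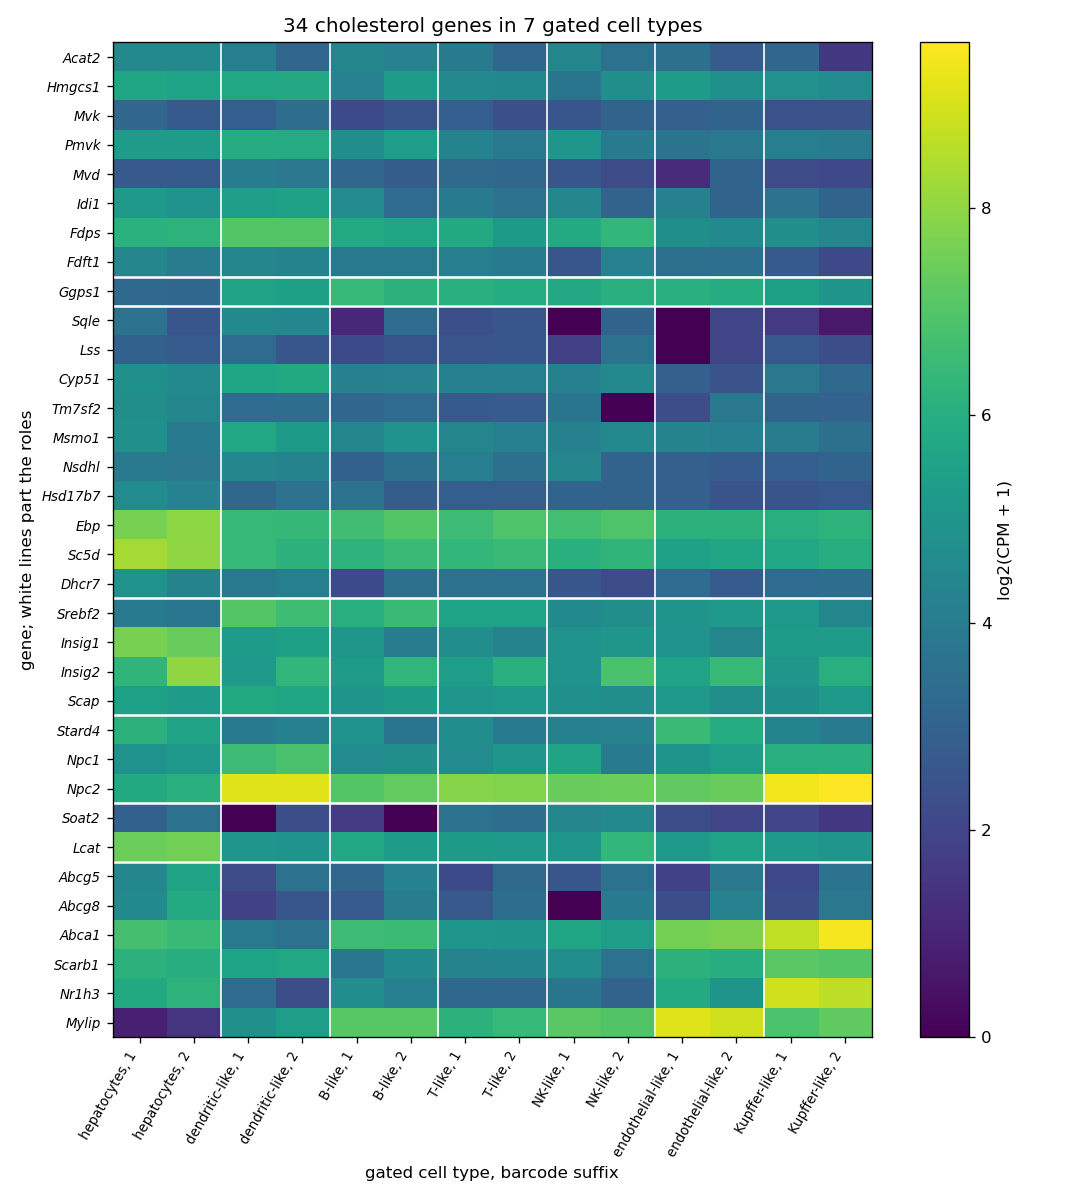
Level of the 34 cholesterol genes, as log2(CPM + 1), in 7 gated cell types of each library (suffix 1 and 2 side by side), with white lines between roles. Ebp, Sc5d, Insig1 and Lcat are brightest in hepatocytes, Npc2 in Kupffer-like and dendritic-like cells, Abca1 and Nr1h3 in Kupffer-like cells, and Mylip in endothelial-like cells.

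Outside the hepatocytes Insig2 had lower levels. It stood at 39.2 and 68.0 CPM in T-like cells, at 33.1 and 65.3 CPM in Kupffer-like cells, at 35.5 and 77.9 CPM in dendritic-like cells, at 37.4 and 79.4 CPM in B-like cells and at 45.3 and 85.3 CPM in endothelial-like cells. Abcg5 stood at 3.45 and 8.91 CPM and Abcg8 at 5.33 and 10.1 CPM in T-like cells. T-like cells carried hepatocyte markers at 0.235 and 0.241 of the hepatocyte level. The values of Abcg5 and Abcg8 lay under that share and are read as background, and that of Insig2 with suffix 2 lay near it, at 0.269. With suffix 1 Insig2 in T-like cells lay above it, at 0.507. In NK-like cells, 89 and 70 of them, Insig2 stood at 29.9 CPM (15.4 to 52.2) and 113 CPM (76.7 to 160.2), on 12 and 31 UMIs, or 0.386 and 0.447 of the hepatocyte level. There the hepatocyte markers stood at 0.297 and 0.309 of the hepatocyte level. The part of hepatocyte RNA in the Insig2 levels of these types was not tested.

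Over 448 cells with suffix 1, each thinned to 5000 UMIs, Pearson's r between the summed early and the summed late enzymes was 0.17 and Spearman's rho was 0.10. Over 427 cells with suffix 2 they were 0.14 and 0.06. A cell held on average 1.13 and 1.22 early UMIs and 3.41 and 3.07 late UMIs at that depth, which is sparse, and the cells share a library, so no relation is read from these values.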

How the data were processed

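The authors deposited 1 joined matrix of whole-number UMI counts per gene and barcode, made with Cell Ranger 7.1.0. The submitters' processing notes also name bcl2fastq 2.20.0, STAR 2.7.2a and mm10. Annotation, cell calling, intron counting and any equalisation of depth were not given in the sources used here. Droplets were filtered and gated as described. The marker share and the limits of the gates were set after the data were seen, no doublet caller was run, and members and lists were chosen with earlier results of these data known. UMIs were summed per class and library and scaled to CPM. With 1 library each and no label tying a suffix to a genotype, both libraries were unassigned and nothing was tested. A count of 0 allows up to 3 UMIs. The genes named are all 34 members and, of 34 other pathway genes, the most different and those over 50 CPM, apart from an item not reported here. Positions came from GENCODE M21 on GRCm38, in which all 34 were found. Intervals and ratios were checked on counts simulated as Poisson draws, with no spread between cells or animals, so the check covers the calculation only. Python 3.11.15, numpy 2.4.6, scipy 1.17.1, pandas 2.3.3 and matplotlib 3.10.9 were used. Alternatives changed the mitochondrial limit, depth limits, gates, scaling, thinning and filters.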

Additional observations from a re-analysis of the deposited data

Results flagged for a closer look

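Droplets with more than 25% mitochondrial UMIs, which no comparison above used and which were not gated by cell type, also held UMIs of the cholesterol genes, more than a count of 0 allows. There were 5675 such droplets with suffix 1 and 8886 with suffix 2. The 18 synthesis enzymes summed to 564 CPM (553 to 575) and 598 CPM (589 to 608) in them, or to 1285 and 1379 CPM once mitochondrial UMIs were left out of the total. Insig2 stood at 29.6 CPM (27.1 to 32.1) in suffix 1 and 137 CPM (133 to 142) in suffix 2, the same order as in the hepatocytes. Abcg8 stood at 13.1 and 38.3 CPM and Abcg5 at 10.8 and 30.1 CPM.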

How the results depend on the processing

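Insig2 and Abcg8 were at least 2-fold higher with suffix 2 under all 15 alternatives, and Abcg5 under all but mitochondrial limits of 10% (log2 ratio -0.73) and none (-0.95), where it was still over 2-fold apart relative to the median of all genes. Sqle was lost among hepatocytes of at least 10000 UMIs, of at least 20000 UMIs (chosen after seeing the data) and under the stricter gate. At a mean of at least 20 CPM (log2 ratio 1.08) and after subtraction of the level in T-like and B-like cells (4.02) it fell below the filter. The count of 4 called genes became 9 at a mitochondrial limit of 10%, where 22.6% of all genes were called and the median log2 ratio of all genes was 0.36, and 8 at a 1.5-fold limit, where 13.4% of all genes were called. That limit of 10% left 56 and 135 hepatocytes. Newly called there were Mvk, Fdft1, Msmo1, Dhcr7, Stard4 and Npc1, all higher with suffix 1. With no mitochondrial limit the median of all genes was 0.49, and relative to it Msmo1 and Stard4, called there, were not 2-fold apart. The other 13 alternatives gave 3 to 6, the 6 after the subtraction, where 23.8% of all genes were called. Newly called after the subtraction were Dhcr7 and Scap, higher with suffix 1, and Fdps, higher with suffix 2.

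The sum of the 18 enzymes was 869.7 CPM (suffix 1) and 715 CPM (suffix 2) with no mitochondrial limit, 947 and 898 CPM with hepatocytes from 2000 UMIs, 1110.1 and 999.7 CPM without mitochondrial UMIs in the total, and 509 and 427 CPM after the subtraction. For suffix 2 alone it moved beyond counting error to 997 CPM at 10%, above the 929 CPM of suffix 1, 822 CPM at 50%, 828 CPM with no limit on other markers and 879 CPM with cells thinned. The 16 enzymes without Ebp and Sc5d gave 413 and 351 CPM, and hepatocytes then ranked 2 and 2 among the types; no other alternative changed their rank of 1. The settings without a limit on other markers and without Ebp and Sc5d were chosen after seeing the data. The Pearson correlation of early and late enzymes was -0.042 and 0.018 at 10%, 0.024 for suffix 1 from 10000 UMIs, and 0.044 and 0.041 without Fdps and Sc5d. No paired analysis was possible because each genotype is 1 sample, and for the same reason none could be left out.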
